A study of Homo sapiens with 6 samples.

Results

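The interferon regulatory factors (IRFs) described here are 8 genes, IRF1, IRF2, IRF3, IRF4, IRF5, IRF7, IRF8 and IRF9, chosen by name. Each was found once among the 61695 loci of the authors' deposited count tables and once among the 63707 rows of their Cuffdiff gene table, and 113 of 274669 transcripts in their isoform table carried one of the 8 symbols. The 6 poly(A) RNA-seq libraries were made from EndoC-βH1, a human beta cell line derived from fetal pancreas. The 3 cytokine libraries came from cells exposed for 24 h to IL-1β at 5 ng/ml, TNF-α at 10 ng/ml, IFN-γ at 50 ng/ml and IL-17 at 100 ng/ml, and the 3 control libraries came from cells without the cocktail. The sample labels call the controls taken before exposure and the extraction protocol calls them untreated over the same 24 h, so time in culture and exposure cannot be told apart from the labels alone. All values come from 1 cell line, and the labels do not say whether the libraries were separate cultures.

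IRF proteins bind a short DNA element, the interferon-stimulated response element, through an amino-terminal domain marked by conserved tryptophans. IRF1 is made in response to IFN-γ and activates immune genes, while IRF2 binds the same element and mostly restrains it. IRF9 is the main DNA-binding subunit of the complex ISGF3, IRF3, IRF5 and IRF7 are switched on by kinases downstream of nucleic acid sensors, and IRF4 and IRF8 are best known from blood cells. IRF1 is a studied regulator of inflammation in beta cells.

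Of the 8 IRF loci, 7 were higher in cytokine-exposed cells and 0 were lower at an adjusted p under 0.05 in the authors' deposited count table. Over all 30206 tested loci, 18.0% were called higher, 19.7% lower and 37.7% in either direction. The locus of IRF4 was the one not past the threshold. At least 2-fold higher were 6 of the 8, all of the called loci but IRF7, as were 6.53% of all tested loci. The median log2 fold change of the 8 was 1.81, and it was 0.05 over all tested loci. Cuffdiff, run by the authors on the same libraries and so no independent check, called the same 7 loci higher, each at q = 0.000232, against 17.8% higher and 35.7% called in either direction among its 21865 tested genes. That q is the smallest the table holds. The deposited tables hold 1 value per group or comparison, so no value per library can be given and an overlap between libraries cannot be seen. All levels, fold changes and tests below are those of the authors' deposited tables or worked out from them, and errors are the standard errors (SE) of the authors' DESeq fit. In bulk RNA, a change in the number of expressing cells and a change in RNA per cell cannot be told apart.

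Promoter sequences of 250 bases before the transcription start were found for 5 of the 8 genes in RefSeq (GRCh38.p14). IRF1 and IRF9 are shown because their windows held motifs of factors that IFN-γ, TNF-α and IL-1β are known to activate, and IRF4 as the gene with almost no reads. Capitals mark matches to TTCNNNGAA, the gamma-activated site of genes that answer to IFN-γ, or to the NF-κB consensus. Both strands were searched and no matches overlapped.
IRF1, chr5:132490774-132491023, minus strand: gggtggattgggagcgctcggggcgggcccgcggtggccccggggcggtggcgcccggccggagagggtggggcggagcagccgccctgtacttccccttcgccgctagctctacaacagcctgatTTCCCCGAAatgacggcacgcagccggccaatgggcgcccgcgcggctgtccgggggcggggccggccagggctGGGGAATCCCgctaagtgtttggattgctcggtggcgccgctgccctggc
IRF9, chr14:24161015-24161264, plus strand: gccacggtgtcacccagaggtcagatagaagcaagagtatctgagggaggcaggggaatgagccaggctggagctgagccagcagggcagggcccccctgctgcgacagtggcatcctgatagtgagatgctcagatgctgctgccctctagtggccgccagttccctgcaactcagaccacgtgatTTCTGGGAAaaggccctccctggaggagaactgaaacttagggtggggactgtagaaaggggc
IRF4, chr6:391502-391751, plus strand: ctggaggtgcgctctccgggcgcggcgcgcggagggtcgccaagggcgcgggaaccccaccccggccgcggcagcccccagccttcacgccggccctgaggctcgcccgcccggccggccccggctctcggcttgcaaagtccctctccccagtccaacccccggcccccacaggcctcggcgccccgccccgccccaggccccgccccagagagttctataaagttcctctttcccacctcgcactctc

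The IRF1 window held a gamma-activated site, TTCCCCGAA, at -124 to -116 from the start and an NF-κB motif, GGGGAATCCC, at -50 to -41. The IRF9 window held a gamma-activated site, TTCTGGGAA, at -63 to -55. Among 35114 promoter windows of the same length, 6.57% held a gamma-activated site and 9.96% an NF-κB motif. A motif of the interferon-stimulated response element, GAAA followed by any 2 bases and a further GAAA, was in 3.02% of those windows and in none of the 9 windows of the 5 genes. No match was found in the windows of IRF4, IRF5 and IRF8. The IRF8 windows, from 85902580 and from 85902765, lie inside the gene, which starts at 85899116 in GENCODE release 44. The sequence before that first start of IRF8 was not searched. A match is a run of letters and does not show that a factor bound there.

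IRF1 had by far the largest change of the 8. Its locus (chromosome 5, 132481609 to 132491387, hg38) had a mean of 70366 normalized counts with cytokines and 692 in control, worked out from the authors' deposited table. That is a log2 fold change of 6.67 ± 0.03 (SE), or 102-fold with a 95% interval of 96.9 to 107. Its adjusted p was listed as 0, under the smallest number the table could hold. Among the 30206 tested loci, 94 (0.311%) had a larger deposited log2 fold change. Of 6250 loci that held a single gene and averaged at least 1000 counts, 24 did. The spread between libraries of a group that its SE implied beyond counting noise was a coefficient of variation of 1.21%, beside a median of 2.70% over loci of at least 1000 counts. That value belongs to the fitted model and was not measured on the libraries. On a per-length scale, the Cuffdiff level of IRF1 was 860 FPKM with cytokines and 8.58 FPKM in control in the authors' deposited table.

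The 3 single-gene loci of at least 1000 counts whose log2 fold change lay nearest to that of IRF1, among 6250 compared over this 1 comparison, were HAPLN3, TNC and NEURL3. In the authors' deposited table they stood at 6.76 ± 0.18, 6.55 ± 0.17 and 6.86 ± 0.19 (SE). Their levels were far lower. HAPLN3, for instance, had a mean of 2406 normalized counts with cytokines and 22.3 in control.

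IRF2, the antagonist of IRF1 at shared DNA sites, rose too, but by much less. Its locus (chromosome 4, 184387713 to 184474580) had a mean of 3399 normalized counts with cytokines and 893 in control (the authors' deposited table). Its log2 fold change was 1.93 ± 0.05 (SE) with the adjusted p listed as 0. The difference between the log2 fold changes of IRF1 and IRF2 was 4.74, with a combined SE of 0.06 that takes the genes as independent. In FPKM of the deposited Cuffdiff table, IRF2 stood at 37.9 with cytokines and 9.05 in control. The ratio of IRF1 to IRF2 in FPKM was therefore 22.7 in cytokine-exposed cells and 0.948 in control cells, where the levels of both were close.

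IRF9, the DNA-binding subunit of ISGF3, was counted in a locus (chromosome 14, 24143362 to 24167402) together with RNF31, a subunit of the linear ubiquitin ligase, and 1 RNA without an assigned role here. The whole locus had a mean of 11372 normalized counts with cytokines and 2468 in control (the authors' deposited table). That locus had a log2 fold change of 2.20 ± 0.03 (SE). Cuffdiff put the same locus at a log2 fold change of 2.94, with 192 FPKM with cytokines and 25.1 FPKM in control. The isoform table separates the genes. Transcripts carrying the IRF9 symbol summed to 123 FPKM with cytokines and 9.67 FPKM in control, a 12.8-fold ratio. Transcripts of RNF31 summed to 27.1 FPKM with cytokines and 13.2 FPKM in control, a 2.06-fold ratio, and its main transcript RNF31-201 rose (q = 0.000833). IRF9 transcripts made up 64.2% of the FPKM of the locus with cytokines and 38.5% in control, and RNF31 14.1% with cytokines and 52.5% in control. A further 41.6 FPKM with cytokines and 2.25 FPKM in control lay in assembled transcripts without a gene name. Adding all of these to IRF9 gave a ratio of 13.8. The sums carry no error in the deposited tables and were not tested, and the split rests on Cuffdiff's assignment of shared reads.

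**Figure D1:**
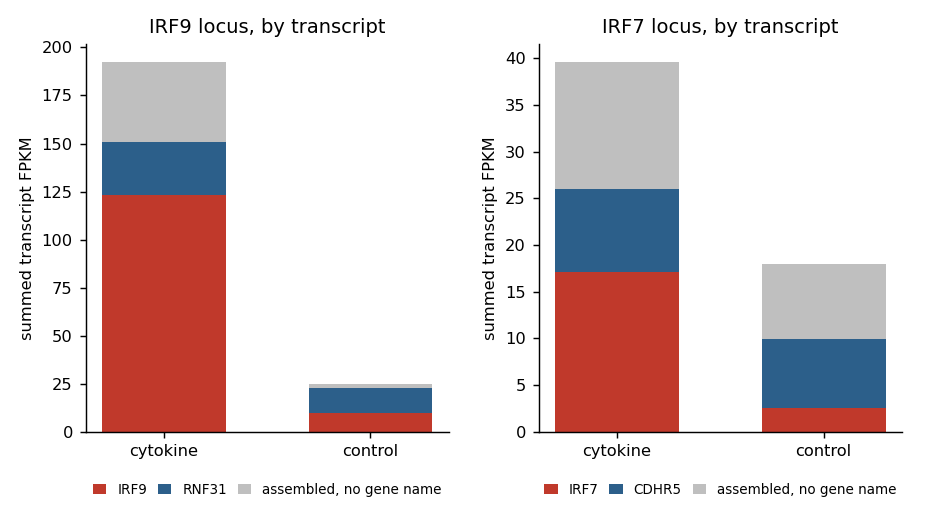
Summed FPKM of transcripts in the IRF9 locus and the IRF7 locus, cytokine beside control, split by the gene symbol of the transcript. IRF9 transcripts stand at 123 FPKM with cytokines and 9.67 in control while RNF31 stands at 27.1 with cytokines and 13.2 in control, and IRF7 transcripts stand at 17.1 with cytokines and 2.56 in control while CDHR5 stands at 8.91 with cytokines and 7.36 in control.

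Among the factors activated by kinases, IRF3 (chromosome 19, 49659569 to 49673916) is usually regarded as present before infection and activated by phosphorylation. Its locus had a mean of 3660 normalized counts with cytokines and 1480 in control (the authors' deposited table). On the log2 scale the change was 1.31 ± 0.04 (SE, adjusted p = 9.94e-203 in the authors' DESeq test). It had the highest control level of the 8 loci in FPKM, 29.4, and stood at 88.2 FPKM with cytokines. IRF5 (chromosome 7, 128937612 to 128950035), which acts downstream of MYD88, was the least abundant of the 7 loci that rose. Its mean was 821 normalized counts with cytokines and 253 in control (the authors' deposited table). The log2 fold change was 1.70 ± 0.09 (SE, adjusted p = 4.23e-83 in the authors' DESeq test). Its coefficient of variation implied by the SE of the fit, 5.39%, was the largest of those 7. In FPKM it stood at 8.44 with cytokines and 2.54 in control.

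IRF7, which amplifies type I interferon production, shared a locus (chromosome 11, 612553 to 626078) with CDHR5, a protocadherin of microvilli. The locus had a mean of 3626 normalized counts with cytokines and 1904 in control (the authors' deposited table). The log2 fold change was 0.93 ± 0.04 (SE, adjusted p = 4.05e-119 in the authors' DESeq test), the smallest of the 7. In the isoform table, transcripts carrying the IRF7 symbol summed to 17.1 FPKM with cytokines and 2.56 FPKM in control, a 6.69-fold ratio. Transcripts of CDHR5 summed to 8.91 FPKM with cytokines and 7.36 FPKM in control, a 1.21-fold ratio. Here the assembled transcripts without a name held much of the signal, 13.5 FPKM with cytokines and 8.10 in control. If all of them belonged to IRF7 its ratio would be 2.88, so the size of the IRF7 change depends on that assignment. Of 10 tested IRF7 transcripts, 1 passed the isoform threshold, at 6.74 FPKM with cytokines and 1.67 in control (q = 0.000833). That is close to the 9.87% called over all tested isoforms.

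IRF8, a factor of myeloid and B cells, was transcribed in this beta cell line in both groups. Its locus (chromosome 16, 85847691 to 85922609) had a mean of 6227 normalized counts with cytokines and 1365 in control (the authors' deposited table). The log2 fold change was 2.19 ± 0.04 (SE) with the adjusted p listed as 0. In FPKM it stood at 58.0 with cytokines and 13.5 in control. In the count table, its log2 fold change and that of the IRF9 locus differed by 0.01, less than their combined SE of 0.05. The IRF9 locus also holds RNF31, and in Cuffdiff the log2 fold changes were 2.10 for IRF8 and 2.94 for that locus. IRF4, a factor of lymphocytes, was almost unread. Its gene (chromosome 6, 391739 to 411447) had a mean of 1.00 normalized counts per library with cytokines and 2.24 in control, about 3.01 counts over all 3 cytokine libraries and 6.73 over all 3 control libraries. The log2 fold change of -1.16 ± 1.51 (SE) had an adjusted p of 0.644 in the authors' DESeq test. Its 95% interval of -4.12 to 1.80 includes changes of more than 2-fold in either direction. Cuffdiff did not test IRF4, at 0.00848 FPKM with cytokines and 0.0172 FPKM in control. Its coding form IRF4-201 was at 0.0027 FPKM with cytokines and 0.00862 FPKM in control, IRF4-204 was listed at 0 in control, and IRF4-205 was listed at 0 with cytokines.

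Markers of blood cells were low in both groups. Leaving out CD68, counted in a locus with EIF4A1, 11 of 12 markers summed to 1.52 FPKM with cytokines and 1.55 FPKM in control, and 4 of them, CD3E, CD3D, CD2 and MS4A1, were listed at 0 FPKM in both. CD14, a myeloid marker, held most of that sum, at 1.13 FPKM with cytokines and 1.29 FPKM in control. PTPRC, the pan-leukocyte marker, had a mean of 0.657 normalized counts with cytokines and 2.71 in control. Loci of all 10 beta cell markers had reads, and INS, IAPP and NEUROD1 were counted together with other genes. Of the 10, 2 rose and 5 fell, where 18.0% of all tested loci were higher and 19.7% lower. The 2 that rose were the IAPP locus and CHGA, with log2 fold changes of 2.25 ± 0.10 and 1.12 ± 0.02 (SE). PDX1, a defining beta cell transcription factor, stood at 16950 normalized counts with cytokines and 17183 in control, and MAFA, a factor of mature beta cells, at 205 with cytokines and 634 in control. Among 15 markers of other pancreatic, stromal and endothelial cells, 3 loci rose and 1 fell of 11 tested, near the 37.7% called over all loci, and those held by a single gene summed to 99.9 FPKM with cytokines and 90.2 FPKM in control. Of these, COL1A1, a collagen of stromal cells, stood at 1394 normalized counts with cytokines and 532 in control (log2 fold change 1.39 ± 0.06, SE). Most of the sum was the duct marker KRT19, which rose (62.0 FPKM with cytokines and 49.4 in control). The acinar marker CPA1 fell (25.5 FPKM with cytokines and 33.7 in control). COL1A1, KRT19 and CPA1 are named after their values were seen. The part of other cells in the IRF values was not tested beyond these levels. Mean depth was 40881975 normalized counts per library.

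**Figure D2:**
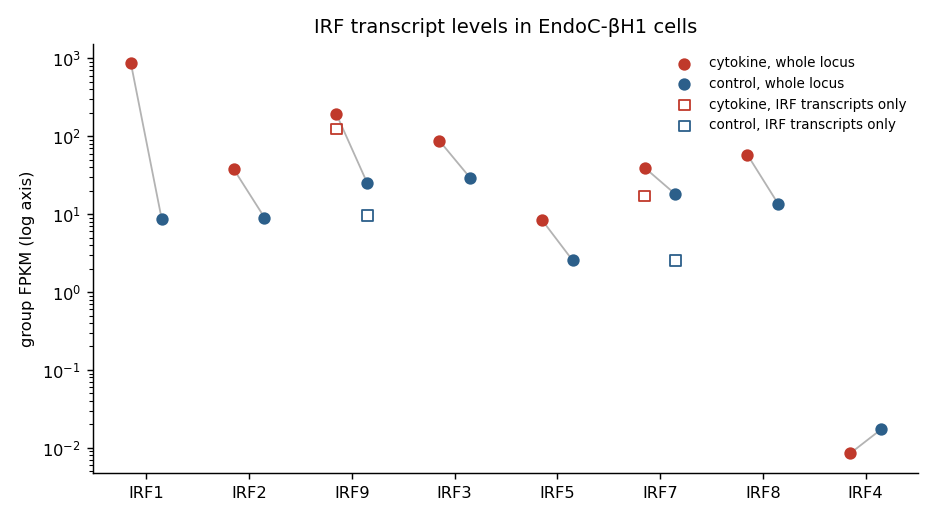
Group FPKM of each IRF locus on a log axis, cytokine left of control, with open squares for transcripts of IRF9 and IRF7 alone. IRF1 moves past every other IRF, at 860 FPKM with cytokines and 8.58 in control, and IRF4 lies near 0.01 FPKM in both groups.

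By locus FPKM, the order with cytokines was IRF1, IRF9, IRF3, IRF8, IRF7, IRF2, IRF5 and IRF4. In control it was IRF3, IRF9, IRF7, IRF8, IRF2, IRF1, IRF5 and IRF4. Neighbours such as IRF7 and IRF2 with cytokines (39.5 and 37.9 FPKM), or IRF2 and IRF1 in control (9.05 and 8.58 FPKM), lay close, and no spread per group is in the deposited Cuffdiff table to separate them. Counting only transcripts with the IRF symbol, IRF9 stood below IRF8 in control (9.67 and 12.7 FPKM) and IRF7 below IRF2 in both groups. IRF1 took 67.0% of the summed FPKM of the 7 loci other than IRF4 with cytokines and 8.07% in control.

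**Figure D3:**
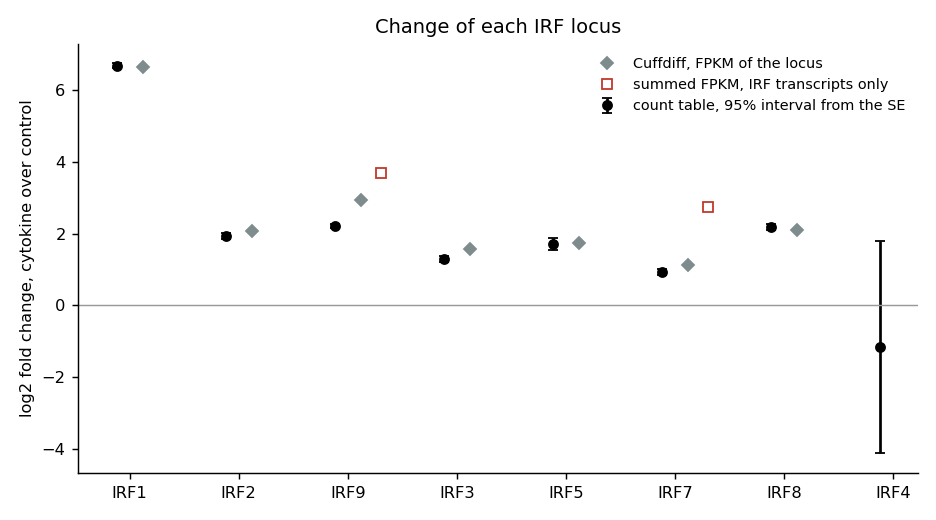
Log2 fold change, cytokine over control, of each IRF locus in the count table with the 95% interval from its SE (black), in Cuffdiff (grey) and for the summed transcripts of IRF9 and IRF7 alone (open squares, no error deposited). IRF1 stands at 6.67, 6 loci stand between 0.93 and 2.20, and the interval of IRF4 spans -4.12 to 1.80.

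The 113 transcripts with an IRF symbol were examined next, to see which forms carried the changes. Of 69 tested, 18 were higher and 0 lower at q under 0.05 in the authors' deposited isoform table. Over all 95649 tested isoforms, 9.87% were called, 5.17% higher and 4.7% lower. Classes are those of GENCODE release 44, matched for 109 of the 113 by identifier, and the authors' annotation version may have had other classes. Shares below are of the summed FPKM of transcripts with the gene's symbol and are descriptions without replicate error.

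IRF1 was carried by annotated coding forms. The transcripts IRF1-202, IRF1-203 and IRF1-201 held 43.4%, 31.5% and 20.5% of its FPKM with cytokines, against 55.0%, 29.4% and 10.2% in control, and all 3 rose (q = 0.000833 each). IRF1-201, the longest of these 3 in GENCODE release 44, stood at 126 FPKM with cytokines and 0.648 FPKM in control. In addition, 1 assembled transcript of the locus without a gene name had 245 FPKM with cytokines and 2.17 FPKM in control, and it also rose (q = 0.000833). A minor form that retains an intron, IRF1-209, rose as well, at 11.8 FPKM with cytokines and 0.111 FPKM in control (q = 0.000833). IRF2-201 held 91.4% of IRF2 with cytokines and 97.4% in control. Those shares leave out transcripts of the IRF2 locus without a gene name, 7.99 FPKM with cytokines and 0.885 FPKM in control. IRF8 was also nearly all coding, with IRF8-201 at 73.0% with cytokines and 60.7% in control, and IRF8-206 at 18.4% with cytokines and 25.7% in control. Both rose, as did the minor coding form IRF8-203 and the main IRF2 form (q = 0.000833 each).

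IRF9 and IRF3 had a different make-up. Transcripts annotated as retaining an intron held 68.0% of IRF9 FPKM with cytokines and 47.3% in control, and coding transcripts held 22.3% with cytokines and 44.1% in control. These shares leave out the transcripts of the locus without a gene name, 41.6 FPKM with cytokines and 2.25 FPKM in control. Counting those as IRF9 would lower the shares. The retained-intron form IRF9-205 stood at 42.8 FPKM with cytokines and 1.31 FPKM in control, and the coding form IRF9-202 at 19.8 FPKM with cytokines and 3.80 FPKM in control. Both rose (q = 0.000833), as did the retained-intron form IRF9-215, at 17.2 FPKM with cytokines and 1.5 FPKM in control. IRF9-208, another such form, stood at 15.3 FPKM with cytokines and 0.860 in control and did not pass the threshold (q = 0.271). For IRF3, retained-intron transcripts held 31.4% with cytokines and 19.5% in control, and coding transcripts 46.0% with cytokines and 60.8% in control. IRF3-210, which retains an intron, stood at 20.3 FPKM with cytokines and 3.43 FPKM in control (q = 0.000833). In GENCODE release 44 it has 567 bases, and the coding forms IRF3-201 and IRF3-203 have 1691 and 1595. The part of transcript length in the IRF3 shares was not tested. The coding forms IRF3-201 and IRF3-203 stood at 9.98 and 8.87 FPKM with cytokines, against 4.61 and 5.90 FPKM in control, and both rose (q = 0.000833 and q = 0.00371). IRF3-231, a form without a defined coding sequence, rose as well (q = 0.0267), as did IRF3-219, annotated as a target of nonsense-mediated decay (q = 0.000833).

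IRF5 and IRF7 were spread over forms with less support. A single IRF5 transcript without a match in release 44 held 44.6% of IRF5 FPKM with cytokines and 12.2% in control, at 2.98 FPKM with cytokines and 0.234 FPKM in control, but it did not pass the threshold (q = 0.554). The coding forms IRF5-201 and IRF5-202 stood at 0.926 and 0.839 FPKM with cytokines, against 0.548 and 0.640 FPKM in control, with q of 0.454 and 0.952. IRF5-203, a retained-intron form, rose to 0.941 FPKM with cytokines, against 0.209 FPKM in control (q = 0.0406). The leading IRF7 transcript, also unmatched in release 44, held 39.4% with cytokines and 65.3% in control. IRF7-203, a coding form, had 2.36 FPKM with cytokines and was listed at 0 in control (q = 0.491). IRF7-207, which retains an intron, had 1.37 FPKM with cytokines and 0.307 in control (q = 0.471).

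**Figure D4:**
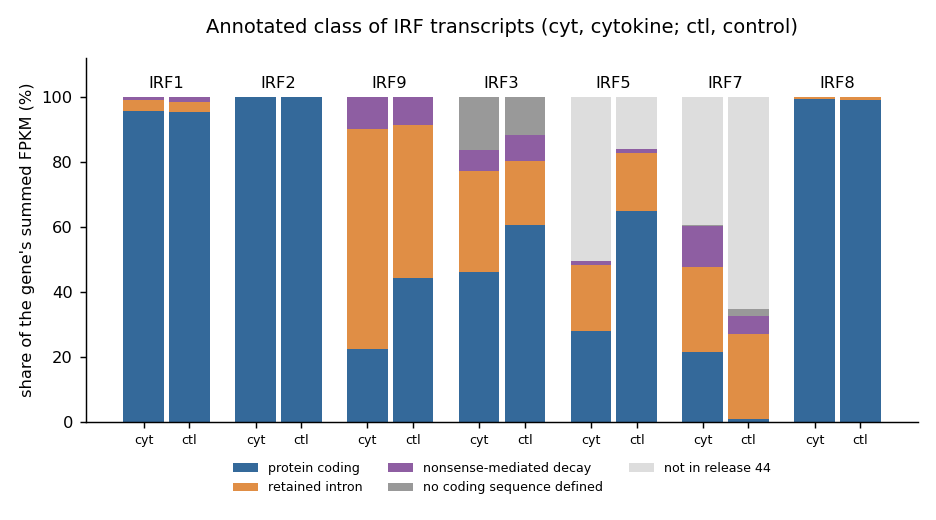
Share of each IRF gene's summed FPKM by the annotated class of its transcripts in GENCODE release 44, cytokine left of control. Retained-intron forms take 68.0% of IRF9 with cytokines and 47.3% in control, while IRF1, IRF2 and IRF8 stay above 95% coding in both groups. Transcripts without a gene name are left out. With cytokines they held 28.6% of the FPKM of the IRF1 locus and 21.1% of that of the IRF2 locus.

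Genes that act on IRFs were listed by role. Of 11 tested loci of interferon receptors, Janus kinases and STAT factors, 9 were higher and 1 lower in the authors' deposited table, where 18.0% of all tested loci were higher and 19.7% lower. Their median log2 fold change was 0.84, against 0.05 over all loci. The kinase JAK2 and STAT2, a partner of IRF9, rose by 3.91 ± 0.05 and 2.52 ± 0.03 (log2 ± SE). IFNGR1, a chain of the IFN-γ receptor, stood at -0.08 ± 0.05 and did not pass the threshold (adjusted p = 0.275 in the authors' DESeq test). Of 15 tested kinases, adaptors and sensors upstream of IRF3, IRF5 and IRF7, 11 were higher and 1 lower, with a median of 0.77, set against the same shares and median over all loci. The double-stranded RNA sensors TLR3 and IFIH1 and the kinase IKBKE, which phosphorylates IRF3 and IRF7, rose by 6.58 ± 0.67, 3.17 ± 0.04 and 3.16 ± 0.09. TLR3 had few control reads, with means of 152 normalized counts with cytokines and 1.59 in control. MAVS, TRAF3 and AZI2 stood at -0.04 ± 0.03, -0.04 ± 0.04 and 0.00 ± 0.07 and did not pass the threshold. TMEM173, which encodes STING, had means of 0.376 with cytokines and 0.349 counts in control and no adjusted p.

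Of 11 tested loci of proteins that bind or restrain IRFs or their inducers, 8 were higher and 2 lower in the authors' deposited table, against 18.0% higher and 19.7% lower over all tested loci. Their median log2 fold change was 0.81, against 0.05 over all. The JAK inhibitors SOCS3 and SOCS1 and the ubiquitin ligase TRIM21 rose by 6.61 ± 0.67, 6.06 ± 0.12 and 3.30 ± 0.06 (log2 ± SE). SOCS3 had few control reads, with means of 155 normalized counts with cytokines and 1.59 in control. IRF2BP1, a corepressor that binds IRF2, stood at -0.02 ± 0.05 (adjusted p = 0.870 in the authors' DESeq test). IRF2BPL, also on this list, had no reads in the count table and is not among the 11. Cuffdiff put it at 55.3 FPKM with cytokines and 46.8 FPKM in control (q = 0.000232 in the authors' Cuffdiff test). The cause of that difference between the tables was not tested. Of 8 tested transcription factors that bind DNA with IRF4 or IRF8, 5 were higher and 1 lower, against the same shares over all loci, with a median of 1.51, or 1.23 with 1 locus of near-zero control at a floor of 3 counts over the control group. BATF2, BATF3 and ETV6 rose by 5.32 ± 0.07, 4.81 ± 0.27 and 1.98 ± 0.04. SPI1, the partner of IRF8 in blood cells, had means of 4.35 normalized counts with cytokines and 2.12 in control, and BATF 2.68 with cytokines and 0.167 in control. Neither passed the threshold. Among the loci of these lists that were lower, TYK2 (-0.07 ± 0.03), PIAS1 (-0.24 ± 0.04) and SPIB (-0.62 ± 0.03, counted with POLD1) are named after their values were seen. Re-centring on abundant loci, a shift of 0.06, put TYK2 at -0.02, not past the threshold, and the 1 lower call among the kinases, adaptors and sensors was lost in the same way. TYK2 and PIAS1 did not pass the threshold in the authors' Cuffdiff test (q = 0.408 and q = 0.165).

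Listed targets of the factors were mostly far higher with cytokines. All 19 tested loci of known IRF1 targets were called higher in the authors' deposited count table, where 18.0% of all tested loci were, and their median was 6.17 (log2 fold change), or 6.06 with 4 loci at the floor of 3 counts. Of the 19, 6 were counted in loci with other genes, and 13 held a single gene. In Cuffdiff 17 of the 19 were called. The locus of NOS2, the inducible nitric oxide synthase, which also holds LYRM9, stood there at 6.41 FPKM with cytokines and 5.67 FPKM in control and did not pass the threshold (q = 0.225 in the authors' deposited table), and its test failed for the locus of TAP2, the partner of TAP1. The tables also differ for TAP1, a subunit of the peptide transporter, counted with PSMB8. It had means of 7.01 normalized counts with cytokines and 0.172 in control in the count table, against 1440 FPKM with cytokines and 10.2 FPKM in control in Cuffdiff, and the cause was not tested. Among them, the chemokine CXCL10 rose by 15.56 ± 0.36 (log2 ± SE). BST2, which tethers budding virus, had a mean of 5123 normalized counts with cytokines and 0.176 in control, and IDO1, which degrades tryptophan, 666 with cytokines and 0.636 in control. All 19 tested loci of known ISGF3 targets were called higher in the count table and in Cuffdiff, against 18.0% and 17.8% of all tested, with a median of 4.66, which did not move with 3 loci at the floor. Of these, 17 held a single gene. Among the 19, IFI44 had a mean of 584 normalized counts with cytokines and 0.176 in control, IFI44L had 511 with cytokines and 0.343 in control, and IFIT3 rose by 8.45 ± 0.13. These genes have other regulators as well, and the tables give no measure of IRF binding or activity.

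The interferon genes that IRF3 and IRF7 can activate stayed near the limit of detection. Of 13 listed, 5 had an adjusted p and 3 had no reads in the authors' deposited count table. IFNL2 and IFNL3, near-identical genes whose reads can be split between copies, were called higher on means of 3.81 and 4.42 normalized counts with cytokines, against 0.168 in control for each, and are named after their values were seen. Both calls were lost at an adjusted p of 0.01 and when a mean of at least 10 counts was required. IFNB1 had a mean of 2.52 with cytokines and 0.165 in control (adjusted p = 0.0773 in the authors' DESeq test), IFNE 4.91 with cytokines and 2.26 in control, and IFNW1 4.81 with cytokines and 1.81 in control, and none of these 3 passed the threshold. The median log2 fold change of 3.94 over the 5 became 1.41 with 3 loci at the floor. Cuffdiff tested none of the 5.

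**Figure D5:**
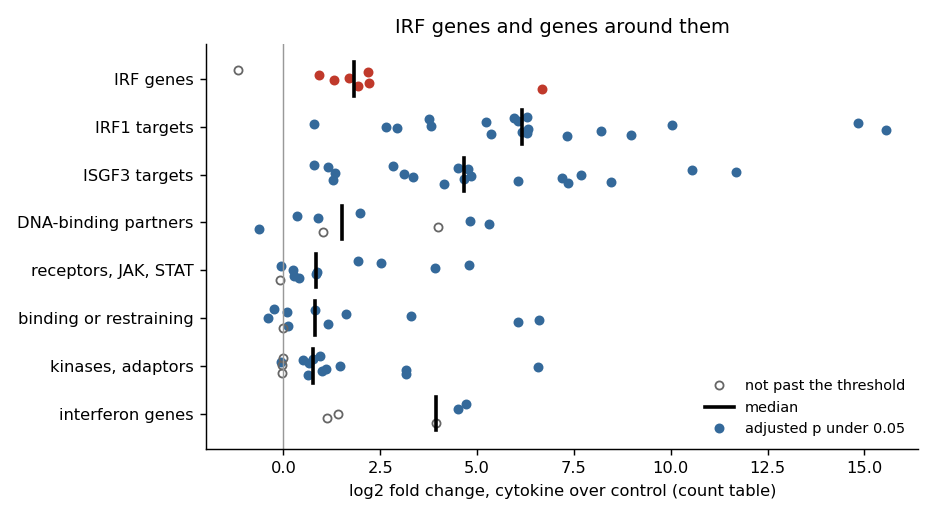
Deposited log2 fold changes, cytokine over control, of the 8 IRF loci and of tested loci of 7 gene lists, filled where the adjusted p is under 0.05, with the median of each as a bar. Fitted values of loci with almost no control reads, such as BST2 and IFI44, are not bounds. All listed IRF1 and ISGF3 targets lie right of 0, while the upstream lists hold values on both sides.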

How the data were processed

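The authors' deposited tables hold 1 comparison of 3 cytokine and 3 control libraries. The submitters' processing notes name DESeq, Cuffdiff 2.2.1, StringTie, STAR 2.5.2b, FastQC 0.10.1 and bcl2fastq, with build hg38. Which read counter, strand setting or annotation was used is not stated there. As deposited, the signal in the deposited count tables is a mean count over 6 libraries after division by size factors, per the file headers. Its log2 values are the authors' fold changes and SE, per the file headers, and its score is their ratio, as deposited. The p-values, adjusted p-values and q-values are the authors' as deposited. The FPKM values are the authors' group values per the file headers, and isoform FPKM of a locus summed to its gene FPKM within 0.000233%.

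Members, gene lists and tests were chosen with earlier results of these data known. Loci are assembled transcript bundles, and 2 of the 8 carried symbols of other genes. The IRF3 locus ran to 49673916, past the gene end at 49665875 in GENCODE release 44. The IRF8 locus began at 85847691, before the gene start at 85899116. The part of such outside sequence in their counts was not tested. Group means, 95% intervals and coefficients of variation were worked out from the deposited mean, fold change and SE. Loci starts were counted from 0 in 11608 of 14194 loci compared with GENCODE release 44, and are given here counted from 1. The named genes of each list were up to 3 with the largest change past the threshold at a mean of at least 50 counts and up to 3 not past it. Isoforms were named at a share of at least 10% or a q under 0.05. For IRF1, the highest member, the nearest 3 loci by fold change were named. The planned tests on counts per library, leave-one-out fits and the replicate block need values per library and were not run. Formulas were tested on simulated data. Computation used matplotlib 3.10.9, scipy 1.17.1, numpy 2.4.6 and pandas 2.3.3 under Python 3.11.15. Some items are not reported here.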

Additional observations from a re-analysis of the deposited data

How the results depend on the processing

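No paired analysis was possible because the deposited tables hold no values per library, and for the same reason no library could be left out and no other normalization could be fitted. Of 54 alternative counts for the IRF genes and the gene lists, 45 lay within 1.5 times the reported count. Requiring a log2 fold change of at least 1 left 5 kinases and adaptors, 4 receptors and signalling genes, 5 binding or restraining proteins and 3 DNA-binding partners. The 2 calls among interferon genes became 0 at an adjusted p of 0.01, with a mean of at least 10 counts, and in Cuffdiff. A Bonferroni adjustment gave 0 Cuffdiff calls for the IRF genes and 0 for their isoforms, because the smallest p of the tool, 5e-05, times the number tested exceeds 1. Of 40 alternative values for the log2 fold changes of single IRF genes, 37 kept their direction and side of the threshold and 0 reversed. The settings on adjusted p, mean count and fold requirement keep the same fold change, so they could not reverse it. Re-centring, a shift of 0.06, was too small to reverse any of them. Only the Cuffdiff values and the transcript sums could have differed in direction. IRF7 at 0.93 missed a fold requirement of 1, and its transcripts alone gave 2.74, a setting added after seeing the data, as for IRF9 at 3.67. The Cuffdiff ratio lay outside the 95% interval of the count table for IRF2 (4.19), IRF3 (3.0), IRF7 (2.20), IRF8 (4.28) and IRF9 (7.66). The cause was not tested. Shares of retained-intron transcripts with cytokines stayed within 1 percentage point when only tested isoforms were used. With means under 5 counts in both groups, IRF4 and the tested interferon genes had too few reads for a narrow interval.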
